A study of Mus musculus with 12 samples.

Results

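Loss of ZBTB24 was followed here through the part of its effect that B cells of the follicles (FO) and of the marginal zone (MZ) had in common: the contrast of conditional knockout (CKO) with control, averaged over both splenic subsets. All 12 of the 12 libraries entered. The labels carry 6 animal numbers, each given to 1 FO and 1 MZ library, and the 2 libraries of a number were added and treated as 1 animal, which gave 3 control and 3 CKO animals. That both libraries of a number came from the same mouse was inferred from these labels. Of 46078 genes in the count file, 33106 had a read and 19579 passed the filter on low counts and were tested.

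The mice were C57BL/6, 8 to 12 weeks old, and RNA was taken from spleen cells separated with a magnetic kit for MZ and FO B cells. Control animals are described as VAVcre and as WT for Zbtb24, CKO animals as VAVcre-Zbtb24 and as Zbtb24-/-. VAVcre expresses Cre recombinase in blood-forming cells, so both genotypes are described as carrying the transgene, and in CKO animals the gene was targeted in every blood lineage rather than in B cells alone. No treatment or immunization is named in the labels.

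ZBTB24 is a zinc finger transcription factor that is mutated in one form of ICF syndrome, an inherited disorder with immunodeficiency, centromeric instability and facial anomalies, in which B cells are present but antibodies are low. The protein binds a short DNA motif in a small number of promoters and activates the genes behind them, and the best known of these is Cdca7. CDCA7 is itself an ICF protein and recruits the chromatin remodeller HELLS to DNA, where the pair helps to keep DNA methylation at repeats.

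The 6 animals had 75472739 to 85796256 reads assigned to genes, and FO cells supplied 48.0% to 52.4% of each animal's reads. B cell identity was as labelled: 8 defining B cell genes summed to 8768 to 9104 CPM in control and 8515 to 9717 CPM in CKO animals (CPM, counts scaled to a common library size with TMM factors). Cd9, an MZ marker, was at 12.1 to 14.2 CPM in the FO and 51.2 to 74.4 CPM in the MZ libraries. After the 4 group means were removed, the FO and MZ library of each animal deviated together. Correlations over 18546 genes were 0.43 to 0.65 in the 6 animals. For FO and MZ libraries of different animals of the same genotype they were -0.45 to -0.12. Removing the group means pushes these values down where those within animals are positive, so the contrast of both ranges is partly built in. The consensus correlation within animals was 0.38. The first principal component of the animals (37.5% of the variance) did not follow genotype: control 2, CKO 1 and CKO 2 lay on one side and control 1, control 3 and CKO 3 on the other, with control 3 and CKO 3, the animals numbered 2003 and 2002, at the far end.

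Sequences are given first for the promoters that the lower genes share. RefSeq promoter windows on GRCm38.p6, from 250 bases before to 50 after a gene's start, were searched on both strands for CAGGACCT (reverse complement AGGTCCTG), the core of the recognition motif reported for ZBTB24. Of 32851 windows, 653 (1.99%) held it, and 13 (0.0396%) held it at least 2 times. Counted by gene over all of its windows, 261 of 11857 tested genes with a window (2.2%) held it. Among the 6 genes that were lower in CKO animals and passed the test, 5 had a window, and Taf6, Cdc40, Rnf187 and Dtnb held the motif, while Axin2 did not. Among the 10 that were higher and passed, 4 had a window and none held it. Of the genes that were named in advance and did not pass, Cdca7 and Camkmt held it, and Zbtb24 and Rnf169 did not. Taf6, Cdc40, Cdca7 and Camkmt are on the list of reported ZBTB24 targets, so a match there is not an independent observation. Camkmt was not lower in CKO animals. The sites are shown 5′ to 3′ on the gene's own strand, with the motif in capitals, because most of the lower genes that passed hold it.
Cdca7, chr2:72476119-72476148, plus strand: atcttagctggCAGGACCTgcgtcccggcg
Taf6 upstream site, chr5:138187388-138187417, minus strand: gcgccttctgaAGGTCCTGacagctgggta
Taf6 site at the start, chr5:138187222-138187251, minus strand: ttggcttctgcCAGGACCTactcctgtcag
Cdc40 upstream site, chr10:40883286-40883315, minus strand: tttaatcaacgAGGTCCTGaaagttacaaa
Cdc40 site at the start, chr10:40883123-40883152, minus strand: tgacaatctgaCAGGACCTgggagacgctg
Rnf187, chr11:58938948-58938977, minus strand: tgcgcagctgcCAGGACCTggacgtcagag
Dtnb, chr12:3572875-3572904, plus strand: gcgaaggcggcAGGTCCTGgcagagggcag
Camkmt, chr17:85090631-85090660, plus strand: ccgggcgtcacAGGTCCTGacagggaagaa

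Counted from the first transcribed base of the window as position 1, the match began at -89 in Cdca7, -180 and -14 in Taf6, -161 and 3 in Cdc40, -60 in Rnf187 and -98 in Dtnb. Taf6 and Cdc40 were thus among the windows with 2 matches, as was Camkmt, at 17 and 42. Dtnb had 4 windows for alternative starts and Taf6 had 2, and in each gene 1 of them held the motif. The upstream Taf6 site and the Cdc40 and Camkmt sites overlap annotated exons of those genes. The Taf6 motif at -14 lies just before the exon that its last printed bases reach, and the Cdca7, Rnf187 and Dtnb sites overlap no exon. A match is a description of the letters and not a measured binding site. The exon-free stretches upstream of the Cdca7 and Rnf187 starts show the motif in its wider setting, for Cdca7 as the best known target and for Rnf187 as a lower gene that is not on the list of reported targets.
Cdca7, chr2:72475969-72476158, plus strand: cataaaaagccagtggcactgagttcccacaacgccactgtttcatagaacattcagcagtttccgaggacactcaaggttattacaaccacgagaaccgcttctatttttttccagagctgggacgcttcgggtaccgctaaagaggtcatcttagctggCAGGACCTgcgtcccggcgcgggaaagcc
Rnf187, chr11:58938917-58939156, minus strand: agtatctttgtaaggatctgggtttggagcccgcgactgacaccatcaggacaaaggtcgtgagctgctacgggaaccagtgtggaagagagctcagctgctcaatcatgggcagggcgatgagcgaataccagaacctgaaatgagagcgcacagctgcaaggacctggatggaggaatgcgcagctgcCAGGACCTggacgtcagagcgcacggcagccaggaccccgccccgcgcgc

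Zbtb24, the targeted gene, was lower in every CKO animal but far from absent. Its level was 55.6, 57.0 and 57.7 CPM in the control animals and 47.4, 44.8 and 46.1 CPM in the CKO animals, so the genotypes did not overlap. CKO animals kept 81.2 ± 2.30% (SD, n = 3) of the control mean. The log2 fold change was -0.30 (SE 0.05), with an edgeR quasi-likelihood adjusted p of 0.236, which is not past the threshold of 0.05. Counts per gene include exons outside a deleted stretch, and the sources used here do not say which exons were targeted, so this value does not measure the completeness of the deletion. The call rests on the fit: it passed with DESeq2 (adjusted p = 0.0112) and in an edgeR fit that took the 12 libraries as independent (adjusted p = 0.00896).

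Cdca7 had a much deeper deficit than Zbtb24, although the main test did not call it. It stood at 32.1, 38.4 and 32.9 CPM in the control animals and at 1.83, 4.04 and 1.197 CPM in the CKO animals. The 2 ranges lie far apart, and what remained in CKO animals was 6.83 ± 4.33% (SD, n = 3) of the control mean. CKO 2 kept 11.7%, more than CKO 1 with 5.32% and CKO 3 with 3.47%. The log2 fold change was -3.87 (SE 0.51) with an edgeR adjusted p of 0.445. Under the alternatives the log2 fold change ranged from -4.50 to -3.56, and Cdca7 passed in 5 of the 15: with the animal as a random effect (limma-voom adjusted p = 1.43e-05), with the 12 libraries as independent (edgeR, 0.00276), with DESeq2 (5.07e-10), without robust dispersion (edgeR, 0.0316) and without CKO 2 (edgeR, 0.00143).

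Averaged over both subsets, 16 genes passed the test, 0.0817% of those tested: 10 were higher in CKO animals (0.0511%) and 6 were lower (0.0306%). The median log2 fold change of all tested genes was 0.01, and 703 genes (3.59%) had an unadjusted edgeR p under 0.05, where 979 would be expected by chance. With 3 animals a genotype an exact two-sided permutation test cannot go below p = 0.1, and each of the 16 genes reached that value. Any gene whose genotypes do not overlap reaches it, as did Zbtb24 and Cdca7. Without overlap in summed counts were 841 higher (4.3%) and 773 lower genes (3.95%) of all tested. The 16 were picked on the same animals, so this test adds no support for them. The edgeR p-values set the difference between genotypes against the spread between these animals, with each gene's dispersion drawn toward that of other genes. In bulk RNA fewer cells of a type and less RNA per cell cannot be told apart.

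**Figure D1:**
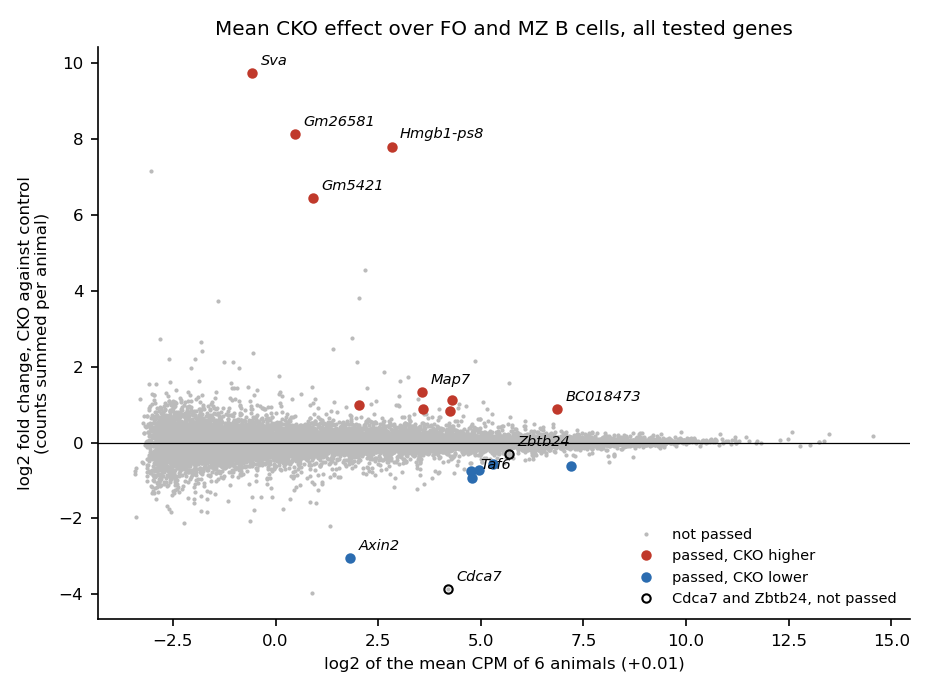
Log2 fold change of CKO against control (vertical axis, counts summed per animal) against log2 of the mean CPM of the 6 animals (horizontal axis) for the 19579 tested genes, with the 10 higher and 6 lower genes that passed in red and blue and Cdca7 and Zbtb24, which did not pass, as open circles. The 4 highest points had 0 to 15 control reads, so their fitted height depends on the prior count of the model; Cdca7 lies at -3.87 and Zbtb24 at -0.30.

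The 6 lower genes were Taf6, Cdc40, Ostc, Rnf187, Dtnb and Axin2. Their losses fell into 2 sizes: 5 kept between 52.7% and 67.8% of the control mean, and Axin2 kept 12.2%. Taf6 encodes a subunit of TFIID, the general transcription factor that binds core promoters. It was at 36.2, 37.9 and 34.0 CPM in control and 19.4, 18.5 and 19.0 CPM in CKO animals (log2 fold change -0.92, SE 0.07, edgeR adjusted p = 0.00144). The highest CKO animal was far under the lowest control, and CKO animals kept 52.7 ± 1.32% (SD, n = 3). Taf6 (chr5:138178617-138187451, minus strand) overlaps Ap4m1 on the other strand, as Axin2 and Dtnb overlap antisense genes. The sources used here do not give the strand setting of the counting, so reads of overlapping genes may not be separable.

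Cdc40, a splicing factor that acts at the second catalytic step, was at 34.0, 34.7 and 33.9 CPM in control and 20.5, 21.9 and 18.2 CPM in CKO animals (-0.76 in log2, SE 0.08, edgeR adjusted p = 0.0113). It lies on chromosome 10 (chr10:40831621-40883311, minus strand), 0.619 Mb before Zbtb24. Ostc, a subunit of the oligosaccharyltransferase that adds N-linked sugars in the endoplasmic reticulum, was at 36.7, 38.4 and 40.8 CPM in control and 25.0, 20.97 and 24.3 CPM in CKO animals (-0.72, SE 0.08, edgeR adjusted p = 0.0176). In both genes every CKO animal was below every control animal. Neither genotype's spread came near the gap between them: the SDs for Ostc were 2.03 and 2.16 CPM, and those for Cdc40 were 0.437 and 1.89 CPM.

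Rnf187, an E3 ubiquitin ligase known as a coactivator of Jun, lies on chromosome 11 (chr11:58932288-58938916, minus strand) and is not among the genes listed here as reported targets. It was at 176, 170 and 192 CPM in control and 111, 117 and 120 CPM in CKO animals (-0.63, SE 0.06, edgeR adjusted p = 0.00804). Dtnb, which encodes beta-dystrobrevin, a scaffold protein of the dystrophin complex, had the tightest values. It was at 46.4, 46.3 and 47.1 CPM in control and 31.7, 31.5 and 31.6 CPM in CKO animals (-0.56, SE 0.05, edgeR adjusted p = 0.00651), so that the CKO animals kept 67.8 ± 0.155% (SD, n = 3) of the control mean.

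Axin2 is a scaffold of the complex that degrades beta-catenin, and it is induced by Wnt signalling and damps it (chr11:108920349-108950783, plus strand). It had few reads, at 6.02, 6.39 and 6.42 CPM in control and 0.482, 1.19 and 0.618 CPM in CKO animals. The log2 fold change was -3.04 (SE 0.32, edgeR adjusted p = 0.0240). CKO 2 kept the most Axin2, 18.9% of the control mean against 7.67% in CKO 1 and 9.85% in CKO 3, the same animal that kept the most Cdca7. Of 20 tested genes of the Wnt pathway list, Axin2 alone passed, and the list's median log2 fold change was 0.01, as for all tested genes.

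Of these 6 genes, 4 (Taf6, Cdc40, Ostc and Axin2) belong to a list of 7 genes reported in other cells as ZBTB24 targets. The list was at a median log2 fold change of -0.76, and its other members were Cdca7, Camkmt and Rnf169. It was drawn up with results on these and other cells known and is not independent evidence of a direction. Camkmt, a calmodulin methyltransferase gene with the motif at 2 places, was at 7.74 to 8.69 CPM in control and 8.9997 to 11.5 CPM in CKO animals (0.28, SE 0.12, edgeR adjusted p = 0.9996). Rnf169, which encodes a ubiquitin-binding protein of the DNA break response, was at 81.1 to 88.8 CPM in control and 79.2 to 85.6 CPM in CKO animals (-0.05, SE 0.06). Camkmt did not overlap between the genotypes, in the direction opposite to the other listed targets with the motif, while Rnf169 overlapped. Across all tested genes 841 (4.3%) were higher and 773 (3.95%) were lower in CKO animals with no overlap.

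Prepl, which encodes a prolyl endopeptidase-like enzyme, was the gene just outside the threshold and was picked after its values were seen. It starts 311 bases from Camkmt, head to head on chromosome 17 (Prepl start 85090241, Camkmt start 85090552). Prepl averaged 25.2 CPM in control and 18.1 CPM in CKO animals (-0.48, SE 0.07, edgeR adjusted p = 0.0646), and CKO animals kept 71.6 ± 3.03% (SD, n = 3) of the control mean. Prepl and Camkmt thus had fold changes of opposite sign from neighbouring starts. Prepl passed in 5 of the 15 alternatives, where the log2 fold change ranged from -0.51 to -0.45. The members just inside the threshold were Gm11735 (adjusted p = 0.0488) and Axin2 (0.0240).

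**Figure D2:**
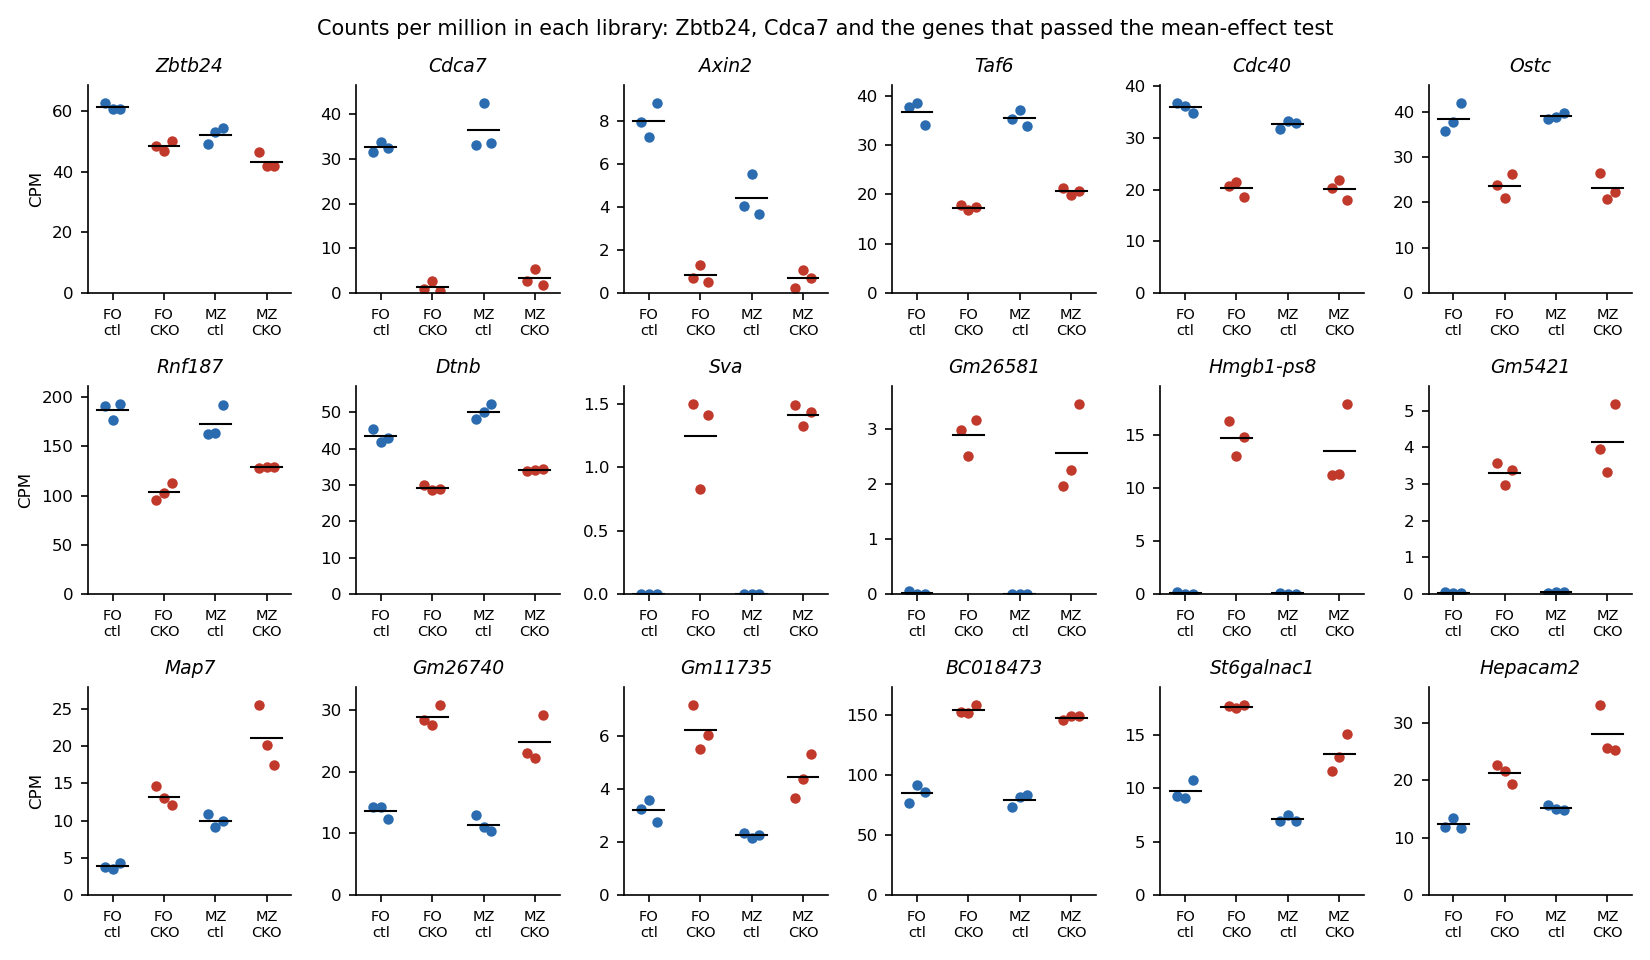
CPM in each of the 12 libraries for Zbtb24, Cdca7 and the 16 genes that passed; blue points are control and red points CKO libraries, columns are FO and MZ B cells, and black lines are means of 3 libraries on axes that start at 0. In both subsets the control and CKO libraries of Taf6, Cdc40, Ostc, Rnf187, Dtnb and Axin2 do not overlap, and Sva is at 0 in all 6 control libraries.

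Of the 10 higher genes, 6 rose from a level already present in control animals to between 179.5% and 250.2% of it, and 4 rose from nearly no reads. Map7, which encodes a microtubule-binding protein, was the highest of the 6 relative to its control level. It was at 7.15, 6.41 and 6.88 CPM in control and 19.7, 16.7 and 14.7 CPM in CKO animals (log2 fold change 1.32, SE 0.12, edgeR adjusted p = 0.00651). Hepacam2, an immunoglobulin-family adhesion molecule, was at 13.7, 14.3 and 13.1 CPM in control and 27.6, 23.9 and 22.3 CPM in CKO animals (0.84, SE 0.09, edgeR adjusted p = 0.0156). Neither gene overlapped between the genotypes.

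On chromosome 11, 3 of the higher genes lie beside each other. St6galnac1 encodes an enzyme that adds sialic acid to O-linked sugars. It was at 8.10, 8.31 and 9.003 CPM in control and 14.8, 15.4 and 16.5 CPM in CKO animals (0.88, SE 0.09, edgeR adjusted p = 0.0132). BC018473, an antisense RNA gene (chr11:116752167-116759373, plus strand), was at 74.6, 86.5 and 84.2 CPM in control and 149, 151 and 153 CPM in CKO animals (0.89, SE 0.06, edgeR adjusted p = 0.00144). Gm11735, an unprocessed pseudogene next to it, went from 2.72 ± 0.180 to 5.38 ± 0.356 CPM (SD, n = 3; 0.98, SE 0.13, edgeR adjusted p = 0.0488). The neighbour St6galnac2, picked after its values were seen, averaged 28.8 ± 2.31 CPM in control and 48.3 ± 10.1 CPM in CKO animals without passing in edgeR (0.74, SE 0.16, adjusted p = 0.862), and it passed in 3 of the 15 alternatives, DESeq2 among them. Other tested genes of the stretch, picked outside the rule, had log2 fold changes of 0.91 (Prcd), 0.71 (Mxra7), 0.34 (1810032O08Rik) and 0.03 (Jmjd6), and none of them passed in edgeR. Of 15 tested sialyltransferases St6galnac1 alone passed in edgeR, and the list's median was -0.04.

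On chromosome 10, the chromosome of Zbtb24, lie 5 of the higher genes. Map7 is 21.3 Mb before it, and Gm26740, Gm26581, Hmgb1-ps8 and Gm5421 lie together between bases 22187013 and 22345792, among the Raet1 and H60 genes, which encode ligands of the NKG2D receptor. Gm26740, an antisense RNA gene, was at 13.5, 12.6 and 11.3 CPM in control and 25.9, 25.1 and 29.97 CPM in CKO animals (1.11, SE 0.10, edgeR adjusted p = 0.00577). The other three rose from nearly no reads. Over the 3 animals of a genotype, Gm26581 had 2 control and 648 CKO reads, a ratio of 329 (exact 95% counting interval 90.7 to 2722). Hmgb1-ps8, a processed pseudogene, had 15 and 3355 reads, a ratio of 227 (137 to 406). Gm5421, another processed pseudogene, had 10 and 884 reads, a ratio of 89.8 (48.6 to 188).

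Within that segment the fold changes had both signs. Raet1d and H60b are given as neighbours, picked after their values were seen. Raet1d had 0 control and 53 CKO reads, at least 17.9-fold higher against a floor of 3 control reads, but did not pass (edgeR adjusted p = 0.104). H60b, a ligand gene that overlaps Gm26740, Gm26581 and Hmgb1-ps8, averaged 13.3 CPM in control and 8.34 CPM in CKO animals (-0.67, SE 0.12, edgeR adjusted p = 0.276). Gm26740 and H60b lie on opposite strands, so that their reads may not be separable, and pseudogenes such as Hmgb1-ps8 and Gm5421 can share reads with their parent genes.

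Sva, which encodes a secreted protein of the seminal vesicle, is the remaining higher gene (chr6:42038394-42042851). It had 0 reads in all 6 control libraries and 318 in the CKO libraries, at least 108-fold higher against a floor of 3 reads over the control group. Its level was 1.49, 1.09 and 1.43 CPM in the CKO animals. It was read in all 6 CKO libraries, at 0.831 to 1.497 CPM. Such counting intervals and floors cover counting error only.

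By position, 6 of the 16 genes were on chromosome 10, which holds 4.27% of tested genes, and 5 were on chromosome 11, which holds 8.12%. Chromosome 6 held 2, Sva and Hepacam2, and chromosomes 3, 5 and 12 held Ostc, Taf6 and Dtnb. Whether nearness to the targeted locus played a part in the chromosome 10 calls was not tested.

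For many of these genes the values in FO and MZ cells were close. All 16 genes had the same direction in FO and in MZ cells, and none of the 16 passed the test of the difference between the subsets, a test in which 4 of 18546 genes passed (0.0216%). Not passing does not show equal effects. Sva and Gm26581 had no read in the MZ control libraries, and the SEs of their differences were 6627 and 1.55, so that test could hardly call them. Taf6 stood at -1.08 (SE 0.08) in FO and -0.78 (SE 0.09) in MZ cells, and Cdc40 at -0.82 (SE 0.08) and -0.70 (SE 0.10). Dtnb had nearly equal values, -0.57 (SE 0.07) and -0.56 (SE 0.08), as did Ostc with -0.70 (SE 0.10) and -0.75 (SE 0.10). Among the higher genes BC018473 was at 0.86 (SE 0.07) and 0.89 (SE 0.07), St6galnac1 at 0.86 (SE 0.11) and 0.88 (SE 0.14), and Gm26740 at 1.09 (SE 0.09) and 1.12 (SE 0.14). These fits share their libraries with the mean and are set side by side only.

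Of the 16, 3 had an unadjusted edgeR p under 0.05 for the difference between subsets. Map7 was at 1.78 (SE 0.14) in FO and 1.08 (SE 0.15) in MZ cells, a difference of -0.71 (edgeR adjusted p = 0.102). Map7 started lower in FO control libraries, at 3.52 to 4.32 CPM, than in MZ control libraries, at 9.09 to 10.9 CPM. Rnf187 was at -0.85 (SE 0.07) and -0.42 (SE 0.08), a difference of 0.43 (edgeR adjusted p = 0.101), and Taf6 differed by 0.30 (edgeR adjusted p = 0.884). Cdca7 is different: its FO and MZ values, -4.54 (SE 0.60) and -3.45 (SE 0.42), differed by 1.14 (SE 0.17, edgeR adjusted p = 0.00253). The FO libraries of the CKO animals kept 3.08%, 8.10% and 1.69% of the FO control mean, and the MZ libraries of the same animals kept 7.57%, 14.7% and 5.16% of the MZ control mean. In each of the 3 animals MZ cells kept the larger share, so for Cdca7 the mean effect stands between 2 different losses.

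**Figure D3:**
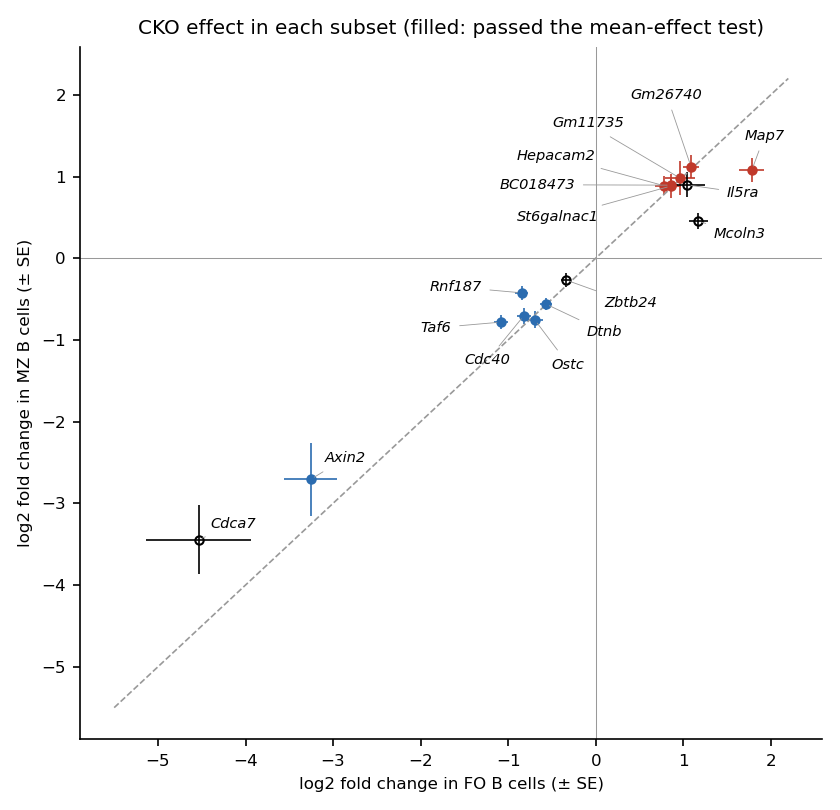
Log2 fold change of CKO against control in FO (horizontal axis) and MZ B cells (vertical axis), each with its SE, for Zbtb24, Cdca7, Il5ra, Mcoln3 and the genes that passed (filled) except the 4 that had 0 to 15 control reads; the dashed line marks equal effects. Cdca7 and Mcoln3 lie off the line on the side of a larger FO effect, and Dtnb, BC018473 and Gm26740 lie on it.

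The number of calls differed between fits. The mean of both libraries' log2 CPM gave 17 genes (limma), and a model with the animal as a random effect gave 27 (limma-voom), both over 18546 genes tested and in both cases with all 16 among them. Taking the 12 libraries as independent, which counts each animal 2 times, gave 38. Gm5421, Gm26581, BC018473, Taf6 and Sva passed in all 15 alternatives that were run. Gm11735 passed in 7 of them and in none that left out an animal. Leaving out 1 control animal took 8 to 10 of the 16 calls away, among them Cdc40, Ostc, Dtnb, Axin2, Hepacam2 and St6galnac1 with each of the control animals.

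**Figure D4:**
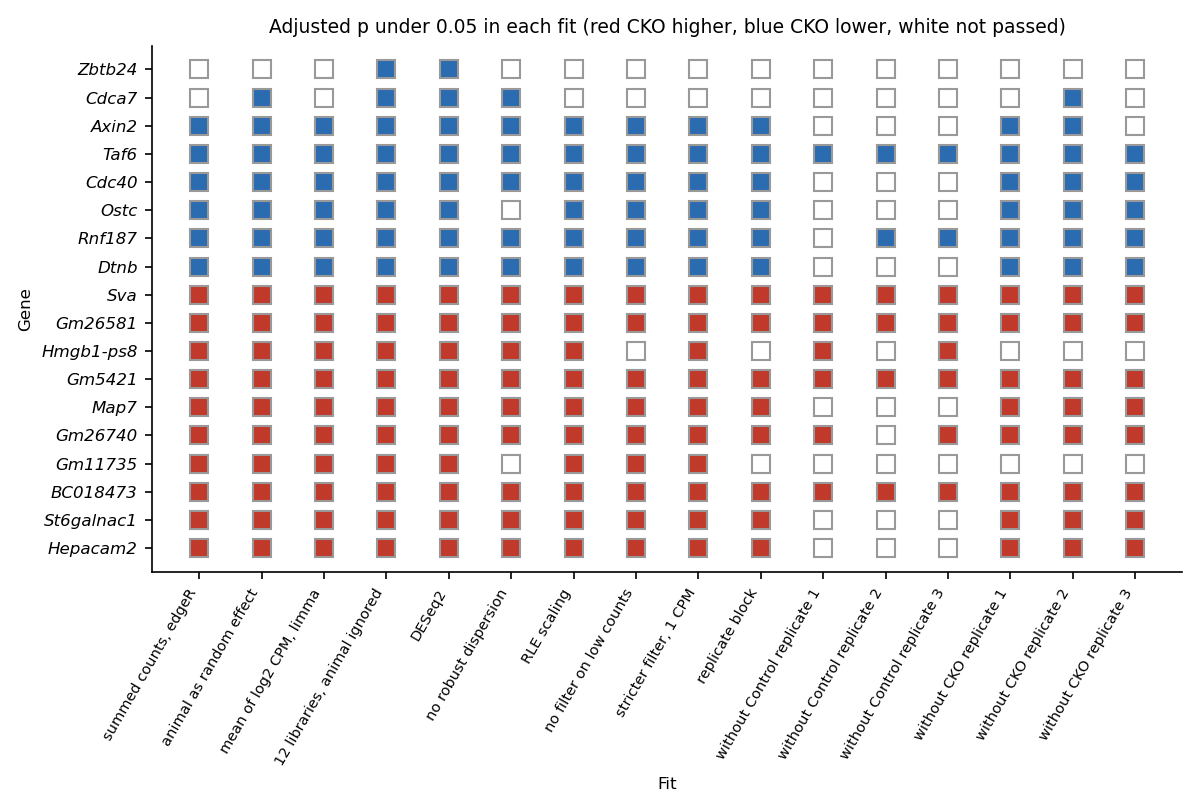
Calls at an adjusted p under 0.05 for Zbtb24, Cdca7 and the 16 genes (vertical axis) under the main test and 15 alternatives (horizontal axis); red squares are higher and blue squares lower in CKO animals, and white squares did not pass. Taf6, Sva, Gm26581, Gm5421 and BC018473 are filled in every column, and Zbtb24 in 2.

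List members outside the threshold included 2 endolysosomal cation channels and a cytokine receptor, whose animals did not overlap between the genotypes, as in 4.3% of tested genes in that direction. Mcoln3 averaged 24.7 CPM in control and 38.1 CPM in CKO animals (0.63, SE 0.09, edgeR adjusted p = 0.0998), and its effect in MZ cells differed from that in FO cells by -0.72 (SE 0.11, edgeR adjusted p = 0.00253). Its FO libraries went from 8.49 to 10.4 CPM in control to 20.9 to 21.8 CPM in CKO, and its MZ libraries from 37.7 to 44.4 CPM to 51.1 to 61.3 CPM. Mcoln2 averaged 54.5 CPM in control and 80.6 CPM in CKO animals (0.56, SE 0.10, edgeR adjusted p = 0.256). Il5ra, the alpha chain of the interleukin 5 receptor, which B-1 cells and activated B cells carry, averaged 17.0 ± 3.65 CPM in control and 33.2 ± 3.88 CPM in CKO animals (SD, n = 3; 0.97, SE 0.16, edgeR adjusted p = 0.342). None of these 3 passed the main test. Of the 15 alternatives, Mcoln3 passed in 6, Il5ra in 5 and Mcoln2 in 4.

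No other gene passed among the partners of these lower genes. Of 16 TFIID subunits Taf6 alone passed, and the list's median log2 fold change was -0.02. Of 12 genes of the oligosaccharyltransferase list Ostc alone passed (median 0.03), and of 14 late splicing factors Cdc40 alone passed (median 0.00). Summed over its list, TFIID stood at 666 to 699 CPM in control and 663 to 672 CPM in CKO animals. The ICF genes other than Zbtb24 and Cdca7 were Dnmt3b, the de novo methyltransferase, at 13.7 ± 0.363 and 14.8 ± 0.494 CPM (SD, n = 3; 0.12, SE 0.08), and Hells at 18.9 ± 1.03 and 20.6 ± 4.63 CPM (SD, n = 3; 0.12, SE 0.15). Of 19 DNA methylation genes none passed in edgeR, 1 had an unadjusted p under 0.05 and 1 passed with DESeq2, in both cases Cdca7, and the median was 0.01.

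Germline genes that DNA methylation keeps silent were near the floor in both genotypes. Only 3 of 15 passed the filter, none passed the edgeR or DESeq2 test or had an unadjusted p under 0.05, and Mael had no read in any library. Summed over the list they stood at 2.66 to 2.99 CPM in control and 1.59 to 2.16 CPM in CKO animals. Sycp1, a protein of the meiotic synaptonemal complex, was at 1.07 to 1.26 CPM in the control animals, at 0.846 and 0.767 CPM in CKO 1 and CKO 2, and at 0 in both libraries of CKO 3.

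Gene lists of B cell function had medians near 0 in the mean effect. Lists of B cell receptor signalling (19 genes), MHC class II (10), inhibitory receptors (13), Toll-like receptors (11), class switching and end joining (18), plasma cell genes (12), endoplasmic reticulum chaperones (16) and the Notch2 pathway (12) had medians of -0.02 to 0.06. None of their members passed with edgeR or DESeq2. An unadjusted edgeR p under 0.05, which 3.59% of all tested genes had, was found in 3 members. These were Cd72, an inhibitory coreceptor (0.17, SE 0.06), Dclre1c, the Artemis nuclease (-0.17, SE 0.07), and Sdf2l1, a chaperone cofactor. Cd72 was at 303 to 309 CPM in control and 316 to 365 CPM in CKO animals. FO markers had a median of 0.05 over 10 genes and MZ markers of -0.02 over 15. None of these passed with edgeR or DESeq2, and 3 MZ markers had an unadjusted edgeR p under 0.05.

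Among MZ markers the tetraspanin Cd9 was at 40.7 to 43.2 CPM in control and 32.9 to 37.8 CPM in CKO animals (-0.27, SE 0.07), and the scavenger receptor Cd36 was at 112 to 122 CPM and 125 to 149 CPM (0.24, SE 0.07). The edgeR adjusted p was 0.9996 for each, so neither value is a call. Immunoglobulin constant genes (11 tested, median 0.09) summed to 8507 to 10007 CPM in control and 9027 to 10126 CPM in CKO animals, so that the ranges overlapped. No immunoglobulin constant gene passed in edgeR or DESeq2, and none had an unadjusted edgeR p under 0.05. Early activation genes (18 tested) had a median of 0.05, p53 targets (14) of 0.08, cytokine receptors (17) of -0.02, B-1 cell markers (9) of 0.09, transitional B cell markers (8) of 0.14, NK cell markers (10) of 0.08 and macrophage and monocyte markers (14) of 0.06. The lists were also fitted without CKO 2, a choice made after the values were seen. CKO 2 had the highest sums of the transitional, NK and macrophage lists, so lower medians without it are at least partly built in. Without CKO 2 the medians were 0.03 for transitional B cell markers (5 of 8 positive), -0.22 for NK cell markers (3 of 10 positive) and -0.27 for macrophage and monocyte markers (1 of 14 positive). Without it they were also 0.03 for early activation genes and 0.04 for B-1 cell markers. No member of these lists passed in edgeR, and Il5ra, a member of 2 of them, passed with DESeq2. An unadjusted edgeR p under 0.05, which 3.59% of all tested genes had, was found in 4 p53 targets and 3 B-1 markers, all higher in CKO animals. It was also found in 4 cytokine receptors, of which Il5ra was higher and 3 were lower.

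In other lists no member passed in edgeR but most members had fold changes of 1 sign. List medians without CKO 2 were added after the values were seen, and none was taken with another animal left out. CKO 2 had the highest interferon and cell cycle sums, so leaving it out was bound to lower those medians. It also had the highest sums of the amino acid, neutrophil, erythroid and dendritic cell lists given below. Lower medians of those lists without it are therefore at least partly built in. Interferon-stimulated genes were all positive, 26 of 26, with a median log2 fold change of 0.34. An unadjusted edgeR p under 0.05, which 3.59% of all tested genes had, was found in 3 of them, and Oas1a passed with DESeq2. The list's sum was 1068, 902 and 1097 CPM in control and 891, 1554 and 1227 CPM in CKO animals. Without CKO 2 the median was 0.00, with 13 of 26 positive. Cell cycle genes were positive in 25 of 26, with a median of 0.28, no unadjusted p under 0.05 and no DESeq2 call. Their sum was 899, 1112 and 869 CPM in control and 940, 1624 and 822 CPM in CKO animals, and without CKO 2 the median was -0.17 with 3 of 26 positive.

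Genes of amino acid synthesis and transport that ATF4 activates also had mostly positive fold changes. Of 19 tested, 18 were positive, with a median of 0.16, but none passed in edgeR or DESeq2. An unadjusted edgeR p under 0.05, which 3.59% of all tested genes had, was found in 5 of the 19. The list's sum was 818, 836 and 784 CPM in control and 859, 912 and 821 CPM in CKO animals, so CKO 3 lay inside the control range. Shmt2, the mitochondrial serine hydroxymethyltransferase, averaged 88.0 ± 2.56 CPM in control and 104 ± 9.34 CPM in CKO animals (SD, n = 3; 0.25, SE 0.07). Without CKO 2 the list's median was 0.08, with 16 of 19 positive.

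Markers of other cell types were read in all animals, and their sums overlapped between the genotypes. All 16 neutrophil markers had positive fold changes, with a median of 0.94, and summed to 110, 238 and 147 CPM in control and 136, 418 and 226 CPM in CKO animals. Without CKO 2, the animal with the highest sum, their median was 0.11, with 12 of 16 positive. Erythroid and platelet markers summed to 176, 290 and 22.4 CPM in control and 75.9, 392.3 and 36.7 CPM in CKO animals, lowest in control 3 and CKO 3 and highest in CKO 2, and their median went from 0.04 to -1.64 (1 of 14 positive) without CKO 2. All 17 T cell markers had negative fold changes, with a median of -0.22 (-0.31 without CKO 2), and summed to 730, 893 and 772 CPM in control and 745, 761 and 555 CPM in CKO animals.

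Dendritic cell markers had a median of -0.19 over 14 genes, and of -0.39 without CKO 2 (1 of 14 positive). Siglech, a receptor of plasmacytoid dendritic cells, was at 6.11, 9.60 and 10.9 CPM in control and 4.41, 6.11 and 4.49 CPM in CKO animals. None of these 4 lists had a member that passed in edgeR, and Siglech passed with DESeq2. An unadjusted edgeR p under 0.05, which 3.59% of all tested genes had, was found in 1 neutrophil marker, 2 T cell markers and 3 dendritic cell markers. Defining markers of these types were read in every animal: S100a8 was at 10.6 to 36.3 CPM, Cd3e was at 5.28 to 9.48 CPM and Hba-a1 was at 0.705 to 60.8 CPM. The part of these markers in the genes that passed was not tested. Of the 16 genes, 14 passed without CKO 2, the animal with the highest neutrophil, erythroid, cell cycle and interferon sums. Without CKO 3, the animal with the lowest T cell sum, 13 passed, and Axin2, Gm11735 and Hmgb1-ps8 did not. Without CKO 1 the count was 14 as well, and Gm11735 and Hmgb1-ps8 were lost as they were without CKO 2. These counts are no test of the part of the markers.

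**Figure D5:**
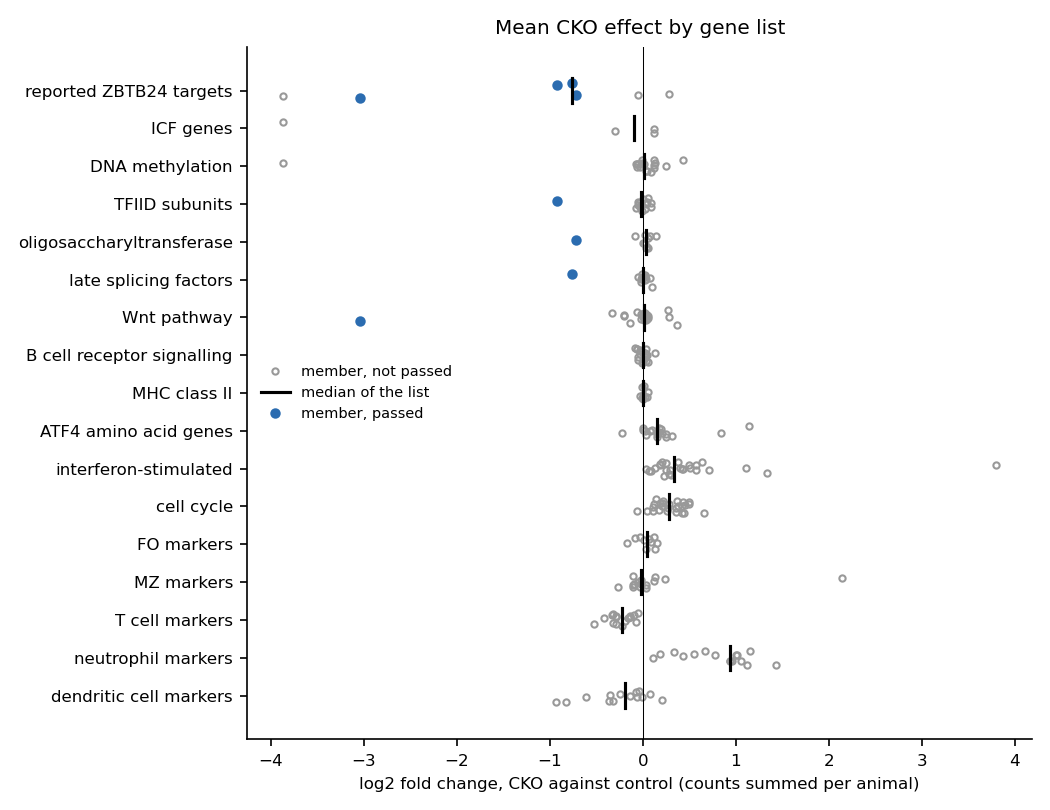
Log2 fold change of CKO against control (horizontal axis, counts summed per animal) for the tested members of 17 gene lists (vertical axis); filled points passed, open points did not, and black bars are medians. Reported ZBTB24 targets have their median at -0.76, while TFIID, oligosaccharyltransferase, late splicing and Wnt lists have medians near 0 with 1 filled point each.

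Several large fitted folds were not calls, and in some of them the animals of 1 genotype were split. The 4 genes given here were picked after their values were seen, from the 12 largest folds that did not pass among genes at 1 CPM or more, as examples of such a split. Gbp2b, an interferon-induced GTPase, was at 0.303 to 0.431 CPM in control animals and at 11.8, 13.8 and 0.538 CPM in CKO 1, CKO 2 and CKO 3. Ackr3, an atypical chemokine receptor, was at 9.49 to 12.8 CPM in control animals and at 71.8, 59.3 and 11.7 CPM. Naip1, an inflammasome sensor, was at 0.157 to 0.291 CPM in control animals and at 1.62, 1.66 and 0.121 CPM. In each of these 3 genes CKO 3 was at or near the control level while CKO 1 and CKO 2 were high. Xkr6 split the control animals instead, with 0.266, 4.86 and 5.32 CPM in control and 0.128 to 0.317 CPM in CKO animals. The edgeR adjusted p was 0.9996 for each of the 4 genes. Gbp2b, Ackr3 and Naip1 passed without CKO 3 and Xkr6 without control 1, and Gbp2b also passed with DESeq2. Ifi44, an interferon-induced gene also among the 12, was at 0.38 to 0.848 CPM in control and at 4.65, 17.1 and 1.04 CPM in CKO animals. There too CKO 3 was nearest the control level, though the genotypes did not overlap. Crisp3, another of the 12, was not split in this way, at 1.99 to 3.99 CPM in control and 6.67 to 12.7 CPM in CKO animals.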

How the data were processed

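The authors deposited raw read counts per Ensembl gene for 12 libraries. Per the submitters' processing notes, TopHat, HTSeq and DESeq2 were used on GRCm38/mm10; versions, strand setting and annotation release are not given in the sources used here. The 5 summary entries (43.2% to 50.4% of a library's tallied reads) were left out. Symbols and coordinates came from Gencode M21 on GRCm38 (45229 of 46078 genes), promoter windows from RefSeq.

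Deposited counts of both libraries of an animal number were added. Genes were kept with filterByExpr, scaled by TMM and tested with the robust quasi-likelihood F test of edgeR 4.0.16 in R 4.3.3, two-sided, with Benjamini-Hochberg adjustment over 19579 genes and a threshold of 0.05. An approximate SE was taken as the size of the log2 fold change over the square root of F. The difference between subsets was tested on 12 libraries with the animal as a block (18546 genes). Alternatives used limma 3.58.1 and DESeq2 1.42.0, other filters and scalings, a replicate block and the removal of each animal. The code was tested on simulated counts.

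The rule for named genes took Zbtb24, the 7 reported targets, all genes that passed, and from each list up to 4 members that passed or, where none did, up to 2 with the smallest p; any further gene in the text was picked after their values were seen. The contrast and the 36 lists (500 genes, 499 in the file) were chosen with earlier results of these data known. The result of 1 gene that the rule names is not reported here.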

Additional observations from a re-analysis of the deposited data

Results flagged for a closer look

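For 4 genes the CKO effect differed between the subsets by a test of the difference itself (edgeR quasi-likelihood, animal as a block, 4 of 18546 genes, 0.0216%, with 968 at an unadjusted p under 0.05), so that 1 mean does not describe both. Mcoln3, an endolysosomal cation channel, had an effect smaller by 0.72 on the log2 scale in MZ than in FO cells (difference -0.72, adjusted p = 0.00253). Cdca7 had a difference of 1.14 (adjusted p = 0.00253), with the deeper loss in FO cells.

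The histone H4 genes Hist1h4a and Hist1h4j had differences of 0.63 (adjusted p = 0.0296) and 0.54 (adjusted p = 0.0482). In the FO libraries Hist1h4a was at 19.0, 24.8 and 18.1 CPM in control and 13.9, 32.6 and 14.1 CPM in CKO animals, and in the MZ libraries it was at 15.4, 21.5 and 16.9 CPM and at 19.8, 44.0 and 17.7 CPM. CKO 2 was the highest animal in both subsets, and histone H4 genes are near-identical copies, so reads may be split among them. With 1 animal left out the adjusted p ranged from 0.00413 to 0.636 for Hist1h4a, past the threshold without control 3 or CKO 3 only, and from 0.0190 to 1 for Hist1h4j, past it without control 2, CKO 2 or CKO 3 only. With DESeq2 it was 0.0215 and 0.0630.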

How the results depend on the processing

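The mean effect gave 16 genes, and 27 with the animal as a random effect, 38 with 12 libraries as independent, 54 with DESeq2 and 42 with no filter on low counts. Leaving out 1 animal gave 6 to 35: 9 without control 1, 6 without control 2 and 35 without CKO 3. All 16 genes were among the calls with the random effect, with 12 libraries as independent and with DESeq2; without the filter 15 were, Hmgb1-ps8 being lost. The 16 genes and Zbtb24, Cdca7, Camkmt, Rnf169, Il5ra, Prepl, St6galnac2, Raet1d and H60b kept their sign in each alternative that gave them a value. So did Adk, Crisp3, Gm37068, Camp, S100a9, Ackr2 and Grk3, which were followed as well. The fold changes of other genes were not followed one by one.

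The difference between subsets gave 4 genes, 39 with no filter and 0 in edgeR with no animal block (238 at an unadjusted p under 0.05), where DESeq2 with the block gave 3. Leaving out 1 animal gave 2 to 31: 2 without control 1, 17 without control 2, 14 without CKO 2 and 31 without CKO 3. Mcoln3 and Cdca7 passed with each animal left out.

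A replicate block on the label numbers gave 22 genes, 14 of the 16 among them. Same-numbered control and CKO animals had correlations of -0.004, 0.36 and 0.43 for numbers 1, 2 and 3. The crossed pairs were at -0.43 (control 2 with CKO 3) and -0.37 (control 3 with CKO 2). Animals of numbers 2 and 3 thus deviated with their namesakes, and those of number 1 did not. Deviations were taken from each genotype's mean, so same and crossed values depend on each other. The cause of the shifts in the number of calls was not tested. Depth limits the folds of Sva and Raet1d, which had no control read, to lower bounds.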
